A study of Mus musculus with 10 samples.

Results

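Small nucleolar RNAs (snoRNAs) were examined in mouse liver as the 73 genes whose symbol begins with Snora or Snord and that had at least 1 array probe set assigned to that symbol alone. They were 73 of 22180 genes measured under a single symbol. Of the 73, 26 were Snora genes (box H/ACA RNAs) and 47 were Snord genes (box C/D RNAs). The 73 genes had 75 probe sets, called transcript clusters on this array, and the brightest cluster over the 10 arrays stood for each gene. Only Snora19 and Snora33 had more than 1 cluster.

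Total RNA of livers from fasted male mice had been hybridised to 1 Affymetrix whole-transcript array per sample, and each value is a log2 RMA value, an array signal corrected for background and set to a common distribution over arrays. All mice carried an adeno-associated virus with the liver promoter TBG, given about 2 weeks earlier. LTKO mice received FST288, a follistatin isoform that binds activins (LTKO FST288, n = 2), or green fluorescent protein as the control cargo (LTKO GFP, n = 2). Wild-type mice kept on a high-fat diet received FST288 (HFD FST288, n = 3) or the control cargo (HFD GFP, n = 3). The labels do not write LTKO out, and give neither the diet of these mice, the ages nor the Cre driver. The name is used in the field for mice that lack the insulin receptor substrates Irs1 and Irs2 and the transcription factor Foxo1 in the liver. Genotype, diet and any processing that went with them cannot be told apart in the comparisons of LTKO with HFD livers.

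A snoRNA guides a protein complex to a matching stretch of another RNA, mostly ribosomal RNA. Box C/D RNAs direct the methylation of the ribose by fibrillarin, and box H/ACA RNAs direct the conversion of uridine to pseudouridine by dyskerin. Nearly all mammalian snoRNAs are cut out of introns of longer host transcripts, many of which encode ribosomal proteins or are long noncoding RNAs of the Snhg family. A few, among them U8 and U13, have promoters of their own. Some, such as U8, U17 and U22, take part in the cleavage of the ribosomal RNA precursor rather than in guiding a modification.

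The labels were checked on the arrays first. In LTKO GFP livers, against HFD GFP livers, Irs1, Irs2 and Foxo1 were lower by 3.4-fold, 2.31-fold and 3.21-fold, and Fst was higher with FST288 than with GFP by 2.72-fold in LTKO and 2.11-fold in HFD livers. The median of 10 hepatocyte markers lay between 11.06 and 11.21 on the LTKO arrays and between 11.36 and 11.57 on the HFD arrays. HFD FST288 arrays 2 and 3 stood apart through pancreatic acinar genes, whose median over 10 measured markers was 8.44 and 7.40 there and between 2.20 and 2.50 on the other 8 arrays. LTKO FST288 array 2 had the highest median of the 8 macrophage markers, 7.71, against 5.39 to 6.15 on the other 9 arrays. In bulk samples, fewer cells of a type and less RNA per cell cannot be told apart. Whether every array came from its own mouse is not stated, so p-values cover only the variation among these 10 samples, part of which may be technical.

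Averaged over the 10 arrays, 63 of the 73 snoRNA genes lay above the median gene mean of 3.12 and 10 below. The median SD within a group was 0.23 for the snoRNA genes and 0.16 for all genes. In the present annotation the Snora genes were 56 to 205 bases long (median 118.5) and the Snord genes 48 to 221 bases (median 68). Values of different clusters depend on their probes, so levels are compared only between groups; bright and dim refer to array signal, not to the amount of an RNA. No 2 of the 73 genes had identical values.

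The first comparison set LTKO GFP against HFD GFP livers. Of the 73 snoRNA genes, 51 were higher in LTKO GFP livers at an adjusted p under 0.05 (limma, Benjamini-Hochberg over 22180 genes; such genes are named as called below), and 0 were lower. Over all genes, 6.69% were called higher and 6.4% lower. At an unadjusted p under 0.05, 59 snoRNA genes were higher and 1 was lower, beside 2918 and 2664 of all 22180 genes. The median log2 change was 1.04 over the 73 genes, a 2.06-fold difference, beside 0.01 over all genes. In 61 snoRNA genes both LTKO GFP arrays lay above all 3 HFD GFP arrays, which held for 21.1% of all genes, and in 1 both lay below, which held for 19.2%. The heat map of array values shows the LTKO columns of both vectors above the HFD columns for most genes of both classes.

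**Figure D1:**
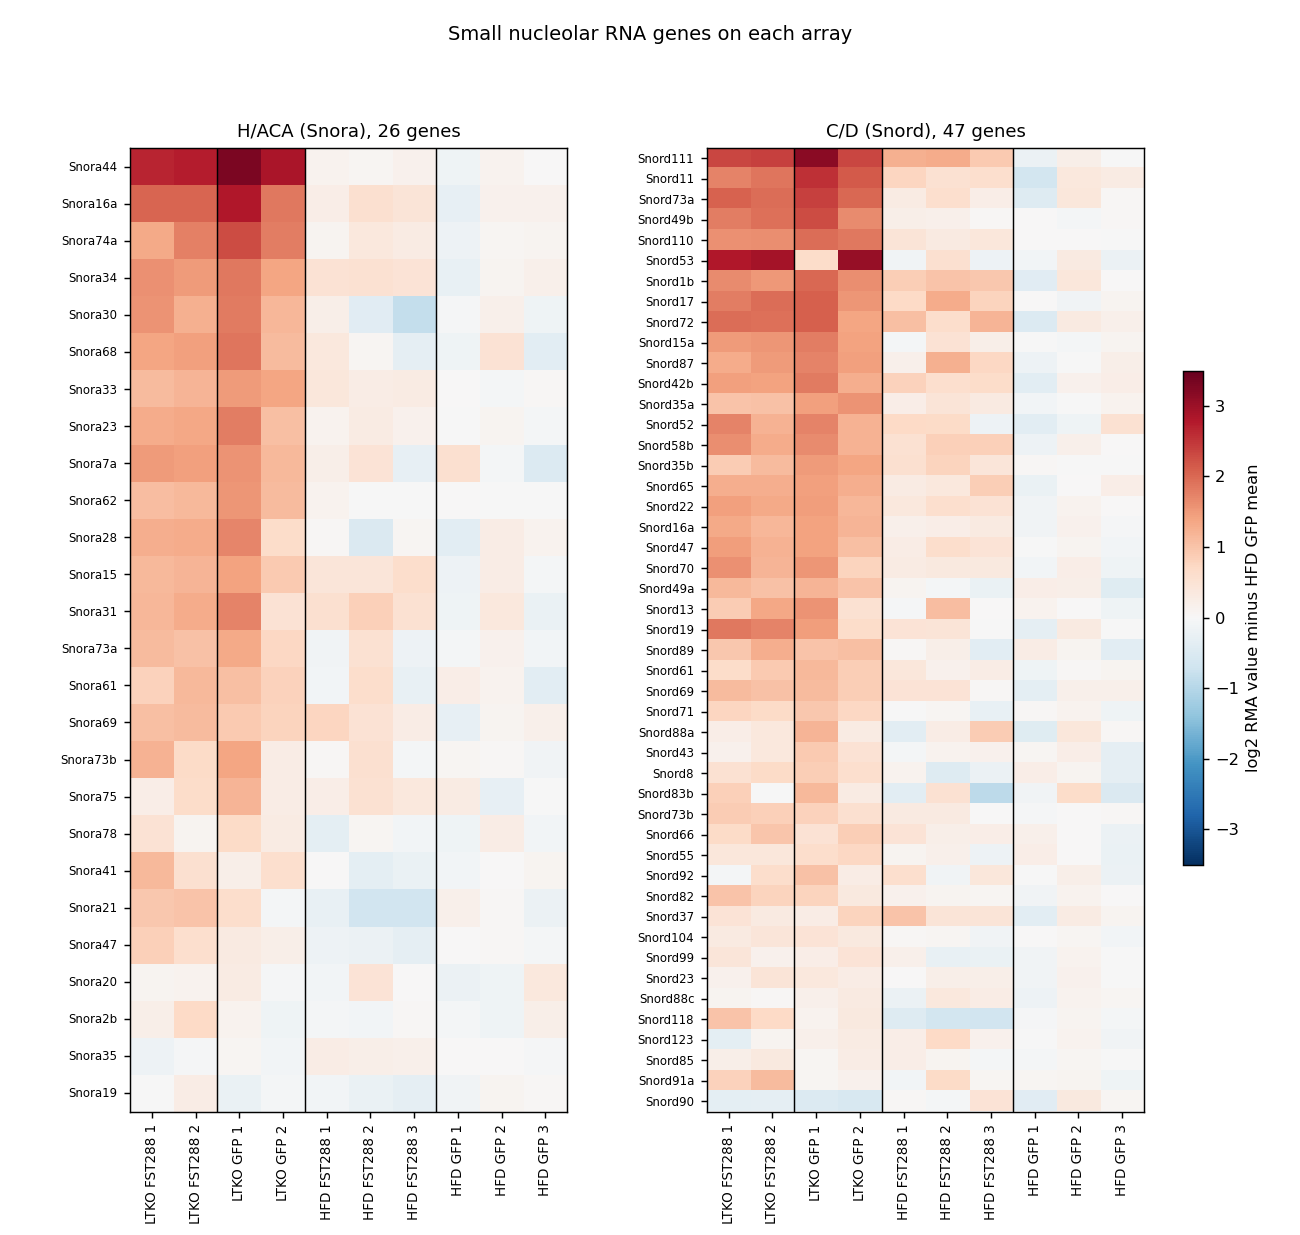
Log2 RMA value of each small nucleolar RNA gene on each of the 10 arrays, minus the mean of the gene's 3 HFD GFP arrays; rows are genes, ordered within each class by the LTKO GFP minus HFD GFP change, columns are arrays, and the colour scale gives log2 units. The largest single difference is that of Snora44 on LTKO GFP array 1, and Snord53 stands apart through a low LTKO GFP array 1.

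By class, of the 26 H/ACA genes, 16 were called higher in LTKO GFP livers, with a median log2 change of 1.07, and of the 47 C/D genes 35 were called higher, with a median of 1.04. Signal level went with the calls. Of the 63 snoRNA genes above the median gene mean, 50 were called higher, beside 12.2% of all genes above it; of the 10 dimmer ones 1 was called, and their median log2 change was 0.14.

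**Figure D2:**
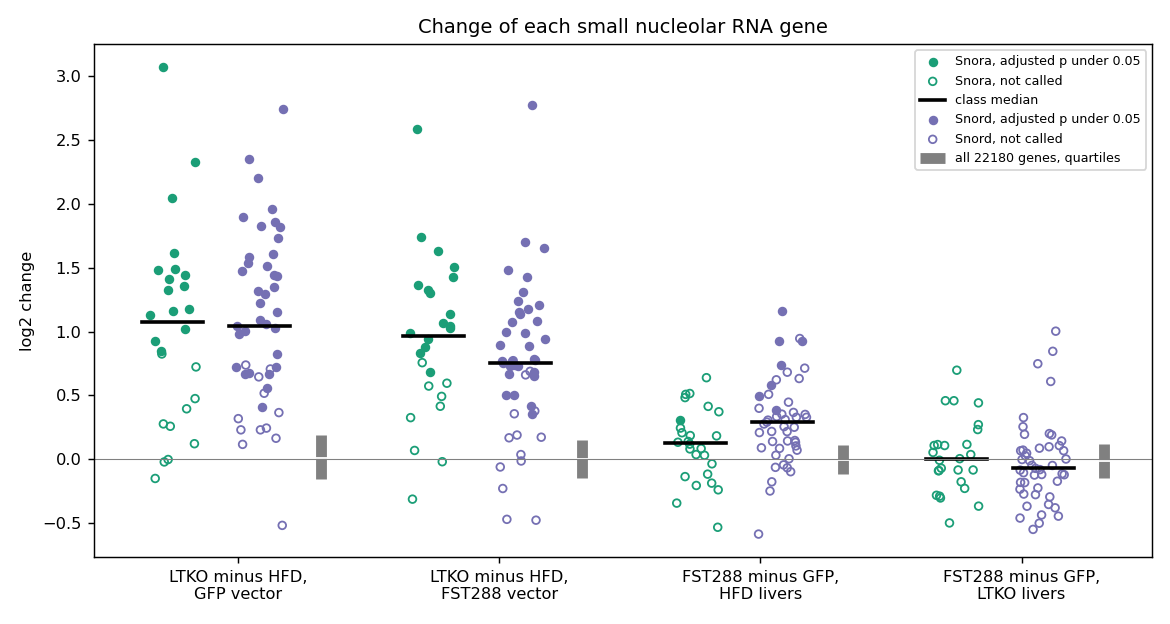
Log2 change of each small nucleolar RNA gene in 4 comparisons (filled points, adjusted p under 0.05; open points, not called), with the class median as a black line and the range between the quartiles of all 22180 genes as a grey bar with its median in white. Both class medians lie near 1 in the LTKO minus HFD comparison with GFP, at 0.97 (H/ACA) and 0.75 (C/D) with FST288, and at 0.13 and 0.29 for FST288 in HFD livers.

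Among the H/ACA guides, Snora44 differed most. It read 10.19 and 9.75 on the LTKO GFP arrays, against 6.75, 7.04 and 6.92 on the HFD GFP arrays. Both LTKO GFP arrays were far above every HFD GFP array. This was 8.4-fold, a log2 change of 3.07 ± 0.12 (SE; limma adjusted p = 3.7e-09). Snora44 lies within Snhg12, a noncoding host that also spans Snora16a, Snora61 and Snord99. Snora16a read 10.66 and 9.71 on LTKO GFP and 7.56, 8.01 and 7.99 on HFD GFP arrays, 5.04-fold higher (log2 2.33 ± 0.21, limma adjusted p = 7.44e-06). Again the groups did not overlap, although the LTKO GFP arrays differed by nearly 1 log2 unit from each other. Snora61, chosen for mention after its values were seen, was higher by 0.93 (limma adjusted p = 0.0183), while Snord99, 1 of the 2 brightest Snord genes, read 11.28 and 11.52 on LTKO GFP and 10.92, 11.16 and 11.03 on HFD GFP arrays and missed the threshold (log2 0.37, limma adjusted p = 0.0831). Snhg12 itself was called higher, by 1.21. The bases upstream of the annotated start of Snhg12 are shown because this one transcript carries the 2 H/ACA genes of largest change and a member that missed the threshold. They run 5′ to 3′ on the strand of the gene, at chr4:132308428-132308677 on the plus strand in GRCm38.p6 (sequence from RefSeq), and the 6 letters CACGTG, the palindromic E-box, do not occur in them on either strand.
Snhg12: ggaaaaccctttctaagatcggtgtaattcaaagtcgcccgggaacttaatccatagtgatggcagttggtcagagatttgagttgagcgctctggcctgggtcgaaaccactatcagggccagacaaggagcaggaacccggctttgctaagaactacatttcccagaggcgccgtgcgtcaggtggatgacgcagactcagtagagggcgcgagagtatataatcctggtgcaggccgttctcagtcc

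Other H/ACA guides lay in genes of the translation machinery. Snora33, in the ribosomal protein gene Rps12, was the brightest H/ACA gene and read 12.88 and 12.78 on LTKO GFP arrays, against 11.41, 11.31 and 11.44 on HFD GFP arrays. The replicates lay close together and the groups were widely separate, with a log2 change of 1.45 ± 0.06 (limma adjusted p = 8e-09). Its dimmer second cluster moved the same way here, by 0.80. Snora62, in Rpsa, read 9.16 and 8.72 on LTKO GFP and 7.62, 7.60 and 7.61 on HFD GFP arrays, a change of 1.33 ± 0.11 (limma adjusted p = 4.43e-06). The HFD GFP arrays were almost equal for this gene, and both LTKO GFP arrays were above them. Snora74a, in Snhg4, was 4.12-fold higher, at 5.94 ± 0.35 on LTKO GFP (SD, n = 2) and 3.90 ± 0.15 on HFD GFP arrays (SD, n = 3; limma adjusted p = 4.82e-06). Snora34, in Kansl2, a subunit gene of a histone acetyltransferase complex, was 3.06-fold higher, at 9.42 and 8.97 on LTKO GFP and 7.31, 7.66 and 7.76 on HFD GFP arrays (limma adjusted p = 4.82e-06). No array of one group overlapped the other in either gene. Snora21, in Rpl23, is bright but was not called with GFP. It read 9.62 and 8.93 on LTKO GFP and 9.16, 9.04 and 8.79 on HFD GFP arrays, so that the lower LTKO GFP array lay among the HFD GFP arrays (log2 0.28, limma adjusted p = 0.377).

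Among the C/D guides, Snord111 changed most. It lies in Sf3b3, a gene of the U2 spliceosomal particle, and read 7.89 and 7.09 on LTKO GFP arrays, against 4.54, 4.96 and 4.72 on HFD GFP arrays. Both LTKO GFP arrays were above all HFD GFP arrays by more than 2 log2 units. The fold was 6.72 (log2 2.75 ± 0.20, limma adjusted p = 1.05e-06). The host Sf3b3 was not called (log2 0.24, limma adjusted p = 0.195). Snord110, in the gene of the C/D core protein Nop56, read 10.30 and 10.18 on LTKO GFP and 8.36, 8.35 and 8.33 on HFD GFP arrays, with a log2 change of 1.89 ± 0.08 (limma adjusted p = 3.7e-09). Replicates of this gene were tight and the groups far apart. Snord49b, in the noncoding gene 2410006H16Rik, was 3.89-fold higher, at 10.61 and 9.98 on LTKO GFP and 8.36, 8.28 and 8.37 on HFD GFP arrays (limma adjusted p = 6.98e-07).

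Several other C/D RNAs rose. Snord35a, from the ribosomal protein gene Rpl13a, read 9.67 and 9.81 on LTKO GFP and 8.14, 8.20 and 8.33 on HFD GFP arrays, a log2 change of 1.51 ± 0.09 (limma adjusted p = 1.58e-07). C/D RNAs of the Rpl13a introns were found in cultured hamster cells to be needed for cell death after a palmitate load. Snord35a was the only RNA of that cluster measured under its own symbol. Snord35b read 7.54 and 7.41 on LTKO GFP and 6.06, 6.02 and 6.02 on HFD GFP arrays (log2 1.44 ± 0.12, limma adjusted p = 3.25e-06). Snord16a, from Rpl4, was higher by 1.29 ± 0.10 (limma adjusted p = 1.44e-06), at 10.48 and 10.27 on LTKO GFP and 8.95, 9.24 and 9.05 on HFD GFP arrays. In all 3 genes the lower LTKO GFP array was above the highest HFD GFP array. Snord22 (U22), from Snhg1, was higher by 1.32 ± 0.10 (limma adjusted p = 1.63e-06), and Snord47, the only measured RNA of the Gas5 cluster, by 1.23 ± 0.12 (limma adjusted p = 1.63e-05). Snord22 was likewise the only measured RNA of the Snhg1 cluster. The upstream windows of Sf3b3, Rps12 and Rpl13a are shown as those of the hosts of Snord111, Snora33 and Snord35a, from RefSeq in GRCm38.p6, 5′ to 3′ on the strand of each gene. They lie at chr8:110846804-110847053 on the minus strand, chr10:23787210-23787459 on the minus strand and chr7:45128746-45128995 on the minus strand. Capitals mark an E-box, CACGTG, which occurs in the window of Rpl13a and in neither of the others.
Sf3b3: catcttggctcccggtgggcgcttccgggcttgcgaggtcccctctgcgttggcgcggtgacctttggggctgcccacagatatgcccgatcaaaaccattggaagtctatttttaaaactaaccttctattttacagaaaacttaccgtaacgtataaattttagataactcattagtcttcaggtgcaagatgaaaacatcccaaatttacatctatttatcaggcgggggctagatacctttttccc
Rps12: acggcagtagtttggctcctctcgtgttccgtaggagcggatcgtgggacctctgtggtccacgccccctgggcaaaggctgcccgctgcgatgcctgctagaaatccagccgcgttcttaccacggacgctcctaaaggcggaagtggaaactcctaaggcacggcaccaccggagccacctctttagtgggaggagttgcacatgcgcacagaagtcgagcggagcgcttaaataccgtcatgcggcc
Rpl13a: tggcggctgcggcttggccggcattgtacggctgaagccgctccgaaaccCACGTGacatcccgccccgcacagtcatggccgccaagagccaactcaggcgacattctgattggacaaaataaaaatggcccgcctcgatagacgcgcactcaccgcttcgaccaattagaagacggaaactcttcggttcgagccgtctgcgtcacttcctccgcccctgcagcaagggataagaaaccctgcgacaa

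The E-box was searched on both strands, which its palindrome makes equal, in the 250 bases before each annotated start. It occurred in 7 of 48 windows of 44 host genes (14.6%) and in 1978 of 32851 windows of all genes (6.02%). The hosts with a match were Eef2, Eif4g1, Gm36220, Ipo7, Rpl13a, Snhg9 and Snx5. A match is a run of letters and not a measured site.

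Besides Snord22, the genes of U17 and U8, which act in cleavage of the ribosomal RNA precursor, and the gene of U13 were measured. Of these 4 genes, 2 were called higher in LTKO GFP livers. Snora73a (U17), in Snhg3, read 9.51 and 8.90 on LTKO GFP and 8.11, 8.34 and 8.10 on HFD GFP arrays (log2 1.02 ± 0.20, limma adjusted p = 0.00346). Its close copy Snora73b read 9.81 and 8.68 on LTKO GFP and 8.50, 8.46 and 8.31 on HFD GFP arrays and missed the threshold (log2 0.82 ± 0.27, limma adjusted p = 0.0596). Signals of these near-identical RNAs may be mixed. Both U17 genes had their higher LTKO GFP value on array 1, and neither overlapped the HFD GFP arrays. Snord13 (U13), which has its own promoter, read 9.41 and 8.37 on LTKO GFP and 7.95, 7.86 and 7.70 on HFD GFP arrays, with a log2 change of 1.06 ± 0.32 just past the threshold (limma adjusted p = 0.0437). The call of Snord13 was lost in 5 of 10 fits that left out 1 array and in 7 of 13 other alternatives. Its log2 change was 0.54 without LTKO GFP array 1 and 1.58 without LTKO GFP array 2. The call of Snora73a was lost without LTKO GFP array 1 (log2 0.72, limma adjusted p = 0.0646). Snord118 (U8), also transcribed on its own, read 4.53 and 4.74 on LTKO GFP and 4.37, 4.51 and 4.33 on HFD GFP arrays and was not called (log2 0.23 ± 0.14, limma adjusted p = 0.364).

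The 22 snoRNA genes not called with GFP ranged in log2 change from -0.52 (Snord90, a dim gene, limma adjusted p = 0.118) to 0.82 (Snora73b). Snord90 was chosen for mention after its values were seen. Snord104, the brightest C/D gene by its mean and encoded within the noncoding gene Gm36220, was called with a small change. It read 12.06 and 11.95 on LTKO GFP and 11.61, 11.67 and 11.50 on HFD GFP arrays (log2 0.41 ± 0.07, limma adjusted p = 0.00201).

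The 2 LTKO GFP arrays were not equal. Array 1 exceeded array 2 in 59 of the 73 snoRNA genes, by a median of 0.36, while it exceeded array 2 in 49.3% of all genes. With HFD GFP as the base, the median over the H/ACA genes was 1.39 and 0.75 on LTKO GFP arrays 1 and 2, and over the C/D genes 1.20 and 0.86. Snord53, in Wdr43, a gene for a ribosome biogenesis factor, went the other way. It read 4.39 and 6.80 on LTKO GFP arrays 1 and 2, against 3.65, 4.04 and 3.52 on HFD GFP arrays (log2 1.86 ± 0.48, limma adjusted p = 0.0194). Its array 1 was close to the HFD GFP values and its array 2 was high. Without array 1 the log2 change was 3.06, and without array 2 it was 0.65 and not called (limma adjusted p = 0.19); the call was also lost without HFD GFP array 1 or 3. The part of the arrays' difference in the results was not tested beyond leaving out each array, which left between 39 and 53 of the 73 genes called higher.

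The same comparison was made between livers that all received FST288. Its group means come from 5 arrays that the group means of the GFP comparison do not use. Both comparisons took the spread of each gene from all arrays in one fit. Their calls are therefore not independent of each other. Of the 73 snoRNA genes, 50 were higher in LTKO FST288 than in HFD FST288 livers and 0 were lower, beside 5.05% and 5.29% of all genes. The counts were 17 of 26 H/ACA and 33 of 47 C/D genes, with median log2 changes of 0.97 and 0.75, beside 0.00 over all genes. Both LTKO FST288 arrays lay above all 3 HFD FST288 arrays in 59 snoRNA genes (18.8% of all genes) and below them in 3 (18.6%). Genes called in both comparisons numbered 45, which was 88.2% of the 51 called with GFP and 90% of the 50 called with FST288; over all genes called higher these shares were 46.1% and 61.1%. They were 14 H/ACA and 31 C/D genes. The log2 change was positive in both comparisons in 64 of the 73 genes, beside 30.5% of all genes, and was smaller with FST288 than with GFP in 55, beside 52% of all genes. When HFD FST288 arrays 2 and 3, those with acinar signal, were left out, 32 genes were called, with 1 array in the HFD FST288 group, whose spread was taken from the other groups. Over all 73 snoRNA genes the median log2 change was then 0.88, beside 0.77 with all arrays. The 50 called genes had a median of 1.03, beside 1.01 with all arrays. They had been picked with the arrays that remained, so their values are no separate check. The macrophage markers moved with this comparison, with 6 of 8 called higher and 7.71 as their median on LTKO FST288 array 2; their part in the result was not tested.

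Among single genes with FST288, Snora44 again had one of the largest changes. It read 9.57 and 9.64 on LTKO FST288 arrays, against 7.04, 6.98 and 7.05 on HFD FST288 arrays (log2 2.59 ± 0.12, limma adjusted p = 1.95e-08). Snord53 read 6.53 and 6.66 on LTKO FST288 and 3.60, 4.30 and 3.56 on HFD FST288 arrays, and here both LTKO arrays were high (log2 2.78 ± 0.48, limma adjusted p = 0.00158). Snord73a, from Rps3a1, was 3.14-fold higher, at 6.83 and 6.71 on LTKO FST288 and 5.03, 5.35 and 4.98 on HFD FST288 arrays (limma adjusted p = 0.000123). Snord15a (U15), from Rps3, was 2.48-fold higher, at 7.29 and 7.35 on LTKO FST288 and 5.73, 6.30 and 6.01 on HFD FST288 arrays (limma adjusted p = 8.49e-05). Neither gene showed overlap between the groups.

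The threshold was passed with FST288 and not with GFP by 5 genes, Snora21, Snora41, Snora47, Snord91a and Snord118. Snord118 (U8) read 5.39 and 5.10 on LTKO FST288 and 3.96, 3.75 and 3.74 on HFD FST288 arrays, 2.69-fold higher (log2 1.43 ± 0.14, limma adjusted p = 1.87e-05). In Snora21 the values were 9.95 and 9.99 on LTKO FST288 and 8.73, 8.32 and 8.33 on HFD FST288 arrays (log2 1.51 ± 0.18, limma adjusted p = 7.21e-05). For Snora47, in Zbed3, they were 7.76 and 7.52 on LTKO FST288 and 6.76, 6.73 and 6.61 on HFD FST288 arrays (log2 0.94 ± 0.11, limma adjusted p = 4.93e-05). The groups were separate in Snord118, Snora21 and Snora47. The test of the difference between the 2 comparisons is the interaction given further on, which was passed by Snord118 but neither by Snora21 (limma adjusted p = 0.0747) nor by Snora47 (limma adjusted p = 0.0911).

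Each snoRNA gene was paired with a host, the shortest annotated protein-coding or long noncoding gene whose span contains it. All but 3 C/D genes had one, and for 57 snoRNA genes the host, 1 of 43 genes, was measured under a single symbol. The strand of the host was not checked. With GFP, 19 of the 43 hosts were called higher in LTKO livers and 0 lower, with a median log2 change of 0.36. In 21 pairs the snoRNA and its host were both called higher, in 18 only the snoRNA, in 6 only the host and in 12 neither. The log2 change of the snoRNA exceeded that of its host in 41 of 57 pairs, with a median difference of 0.57. These pairs share hosts, so they are not 57 separate observations. Averaged over all arrays, the hosts Rpl17 (2.58), Rpl39 (2.55), Snhg18 (2.44) and Htr2c (1.96) lay below the median gene mean of 3.12. Array signal near background limits what could be seen of a change in such dim hosts. Their part in the difference between snoRNAs and hosts was not tested.

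With GFP, the kind of host went with the share of calls. Of 18 snoRNA genes in ribosomal protein genes, 16 were called higher in LTKO GFP livers (median log2 change 1.40). Of 20 in long noncoding genes, 16 were called (median 1.16), of 32 in other protein-coding genes 17 (median 0.73), and of 3 without a host 2. The hosts themselves had median changes of 0.80, 0.63 and 0.24 in these first 3 kinds. With FST288, 14 of the 18, 15 of the 20 and 19 of the 32 were called higher in LTKO livers. Their median log2 changes then lay closer together, at 0.78, 0.83 and 0.71. The shares were not tested against each other with either vector.

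**Figure D3:**
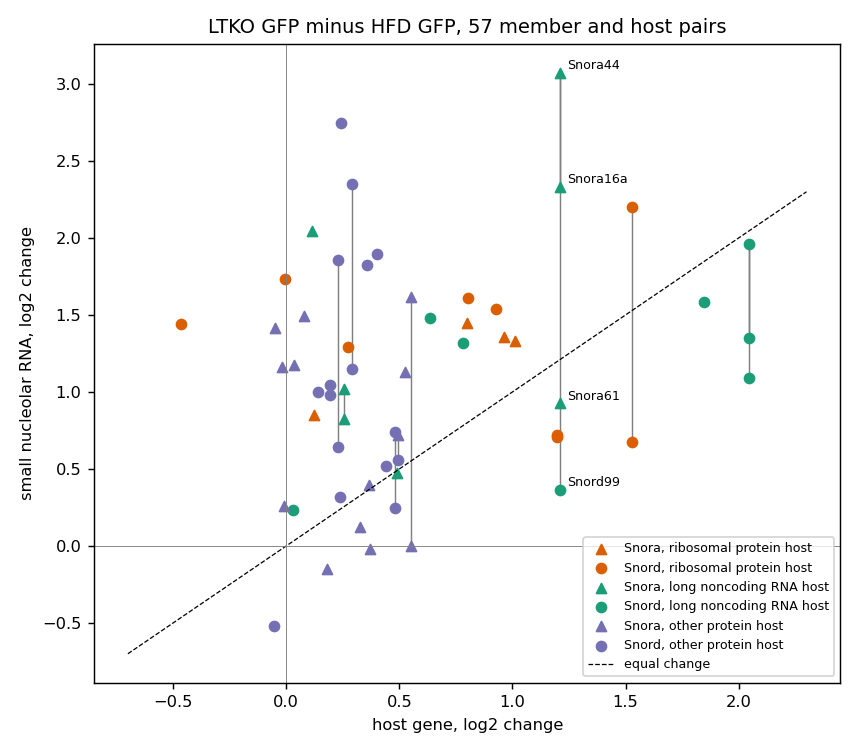
Log2 change in LTKO GFP against HFD GFP livers of 57 small nucleolar RNA genes (vertical axis) and of their host genes (horizontal axis); colour gives the kind of host, triangles are H/ACA and circles C/D genes, grey lines join genes of one host and the dashed line marks equal change. Points lie above the dashed line in 41 of 57 pairs, and the 4 genes in Snhg12 spread from 0.37 to 3.07 at a host change of 1.21.

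Shared hosts numbered 11 and held 25 of the snoRNA genes. In some, the log2 changes of the residents lay close together, as in Rpl3 with 0.71 and 0.72 and in Gnl3 with 0.98 and 1.04, and in others they lay further apart. Besides Snhg12, Nop58, a C/D core protein gene whose own transcript was not called (log2 0.29, limma adjusted p = 0.394), held Snord11 with 2.35 and Snord70 with 1.15, both called. Rps3a1, called higher by 1.53, held Snord73a with 2.20 and Snord73b with 0.68, also both called. In 2410006H16Rik, the host with the highest log2 change at 2.05, the 3 resident C/D genes changed by 1.09 to 1.96, all called. Kansl2, not called, held Snora34 with 1.62 and the dim Snora2b with 0.00. These residents other than Snora34 and Snord73a were named after their values were seen. Between members of one host the difference was not tested.

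Genes for proteins that form, assemble or trim snoRNA particles were called in both directions. Among the C/D core proteins, Snu13, which binds the kink of the C/D RNA, was higher in LTKO GFP livers by 0.83 ± 0.11 (limma adjusted p = 0.000193) and Nop56 by 0.40 ± 0.11 (limma adjusted p = 0.0344), while Nop58 was not called. With FST288, 1 of these 3 genes was called higher in LTKO livers. The methyltransferase Fbl had no cluster of its own. Among the H/ACA core proteins 0 of 4 were called by limma in either LTKO comparison, with 1 higher at an unadjusted p under 0.05 in each. The pseudouridine synthase Dkc1 had a log2 change of -0.13 (limma adjusted p = 0.628), Nhp2 0.34, Nop10 0.11 and Gar1 0.18. Of 15 measured assembly and transport factors, 0 were called higher and 3 lower in LTKO GFP livers, beside 6.69% and 6.4% of all genes. These were the export receptor Xpo1 (-0.68), the Lsm ring protein Lsm6 (-0.51) and the cap hypermethylase Tgs1 (-0.42). Of 9 trimming and turnover enzymes, the exonuclease Xrn1 alone was called, with a log2 change of -0.45. With FST288 the assembly factors gave 2 higher, Rpap3 (0.56) and Nop53 (0.48), and 1 lower, Xpo1 (-0.68), while 0 of the 9 trimming and turnover enzymes were called by limma, and 0 had an unadjusted p under 0.05.

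Other RNA classes were set beside the snoRNAs. Of 19 noncoding host genes, 6 were called higher and 1 lower in LTKO GFP livers, among them Snhg6 (log2 1.85), Snhg17 (1.58) and Zfas1 (1.39) as higher and Snhg14 (-0.49) as lower. Small Cajal body RNAs, which guide modification of spliceosomal RNAs, were called higher in 3 of 5, namely Scarna17 (0.90), Scarna2 (0.68) and Scarna10 (0.47). Of 10 other structured RNAs, 5 were called higher, with 1.27 for the Y RNA Rny1, 1.00 for Rny3, 1.00 for Rpph1, the RNA of ribonuclease P, 0.97 for the minor spliceosomal RNA Rnu12 and 0.28 for Rn7sk. Rnu3a, a mouse gene of U3, is itself a box C/D RNA of precursor cleavage. It was counted here because its symbol begins with neither Snora nor Snord, and it was not called (log2 0.49, limma adjusted p = 0.573). Of 63 ribosomal protein genes, 31 were called higher and 2 lower (median log2 change 0.44). Of 483 microRNA genes, 14 were called higher and 27 lower (median -0.07), and of 25 histone genes 2 higher and 1 lower (median -0.02). Both of these classes were dim, with array medians of 1.95 to 2.13 and of 1.83 to 2.29. These lie below the median gene mean of 3.12, and signal near background limits what could be seen of a change.

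**Figure D4:**
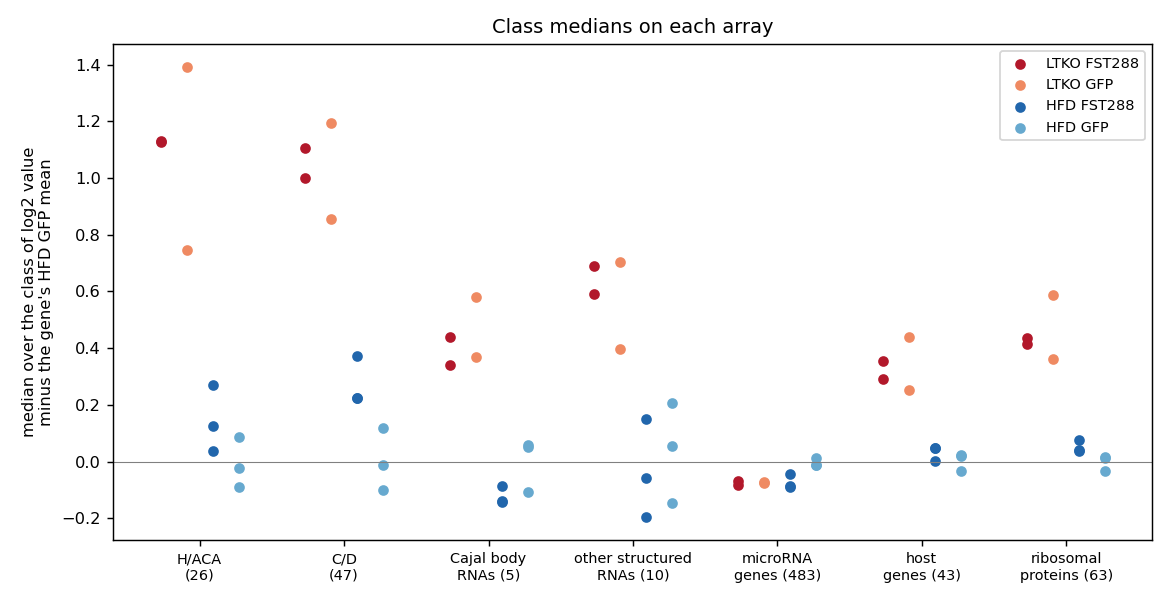
Median over each class of RNA genes of the log2 value minus the gene's HFD GFP mean, on each of the 10 arrays (points; colour gives the group); the number of genes stands under each class name. On the 4 LTKO arrays the H/ACA and C/D medians lie between 0.75 and 1.39, the ribosomal protein medians between 0.36 and 0.59 and the microRNA medians between -0.08 and -0.07. The microRNA genes were dim, with a median log2 value of 1.95 to 2.13 on the 10 arrays.

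The FST288 arrays put the question of how follistatin acts in the liver. In HFD livers, 8 of the 73 snoRNA genes were higher with FST288 than with GFP and 0 were lower, beside 0.577% of all genes called higher and 0.419% lower. Of the 8, 7 were C/D genes and 1, Snora33, was an H/ACA gene. The median log2 change was 0.13 over the 26 H/ACA genes and 0.29 over the 47 C/D genes, beside 0.00 over all genes. All 3 HFD FST288 arrays lay above all 3 HFD GFP arrays in 28 snoRNA genes, which held for 9.3% of all genes, and below them in 3, which held for 9.11%. All 8 were also called higher in LTKO GFP livers, where 51 of the 73 snoRNA genes were called higher. That comparison shares the HFD GFP arrays with this one. Of the 43 hosts 0 were called by limma in HFD livers (5 higher and 1 lower at an unadjusted p under 0.05, where 6.02% of all genes lay in each direction).

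Snord111 had the largest change with FST288 in HFD livers. It read 6.0, 6.05 and 5.67 on HFD FST288 arrays, against 4.54, 4.96 and 4.72 on HFD GFP arrays, 2.24-fold higher (log2 1.16 ± 0.18, limma adjusted p = 0.00721). Every FST288 array was above every GFP array. Snord1b, in Snhg16, read 7.78, 7.91 and 7.87 on HFD FST288 and 6.52, 7.31 and 6.93 on HFD GFP arrays (log2 0.93 ± 0.16, limma adjusted p = 0.013). Clusters listed for Snord1b together with Snord1c had smaller log2 changes in HFD livers, 0.61 and 0.52. Snord17, in the sorting nexin gene Snx5, read 6.81, 7.40 and 6.87 on HFD FST288 and 6.12, 5.96 and 6.20 on HFD GFP arrays (log2 0.93 ± 0.16, limma adjusted p = 0.0145). Of the 3 FST288 arrays, array 2 was highest for Snord17. The window upstream of Snx5, at chr2:144270573-144270822 on the minus strand in GRCm38.p6 from RefSeq, is shown as that of a second host with an E-box, marked in capitals, beside Rpl13a.
Snx5: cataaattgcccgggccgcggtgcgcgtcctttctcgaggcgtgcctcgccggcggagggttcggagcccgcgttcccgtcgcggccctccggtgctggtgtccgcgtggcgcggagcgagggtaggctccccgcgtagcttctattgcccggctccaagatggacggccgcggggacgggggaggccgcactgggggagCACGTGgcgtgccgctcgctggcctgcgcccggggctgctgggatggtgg

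The other 5 changed by less. Snord58b, in Rpl17, was higher with FST288 by 0.74, Snord35b by 0.58, Snord22 by 0.49, Snord110 by 0.39 and Snora33 by 0.31, with limma adjusted p between 0.0145 and 0.0187. Snord110 had very even replicates, at 8.80, 8.66 and 8.74 on HFD FST288 and 8.36, 8.35 and 8.33 on HFD GFP arrays. Snora33 read 11.77, 11.64 and 11.69 on HFD FST288 and 11.41, 11.31 and 11.44 on HFD GFP arrays. Its dimmer second cluster had a log2 difference of -0.14. In each of the 8 genes all 3 FST288 arrays were above all GFP arrays, and array 1, which had no acinar signal, was above the highest GFP array by at least 0.26. The 8 genes had been picked by their calls on these same arrays, so this separation is no separate check.

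The count differed without the arrays that had acinar signal. Without HFD FST288 arrays 2 and 3, array 1 alone gave log2 differences of 1.25 for Snord111, 0.86 for Snord1b, 0.71 for Snord17, 0.55 for Snord35b, 0.53 for Snord58b, 0.45 for Snord110, 0.39 for Snora33 and 0.38 for Snord22, but 0 genes were called, with a single array left in the group. Leaving out 1 array at a time gave between 1 and 13 calls. The count was 2, 4 and 2 without HFD GFP array 1, 2 or 3, it was 1 and 3 without HFD FST288 array 2 or 3, and it was 13 without either LTKO GFP array. None of the 8 calls was kept in every such fit. The 3 HFD FST288 arrays had medians over the C/D genes of 0.22, 0.37 and 0.22, and over the H/ACA genes of 0.13, 0.27 and 0.04, as differences from the HFD GFP mean.

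In LTKO livers, 0 of the 73 snoRNA genes were called between FST288 and GFP (limma), beside 0.0992% of all genes called higher and 0.0676% lower. At an unadjusted p under 0.05, 8 were higher and 7 lower, beside 4.73% and 5.24% of all genes. The medians were 0.00 over the H/ACA and -0.07 over the C/D genes. Both FST288 arrays lay above both GFP arrays in 11 snoRNA genes and below them in 11, beside 16.8% and 21.1% of all genes. Snord35a had the smallest adjusted p among the lower ones, with 9.22 and 9.25 on LTKO FST288 and 9.67 and 9.81 on LTKO GFP arrays (log2 -0.50 ± 0.10, limma adjusted p = 0.0901). Its groups did not overlap. Snord118 lay on the other side, with 5.39 and 5.10 on LTKO FST288 and 4.53 and 4.74 on LTKO GFP arrays (log2 0.61 ± 0.16, limma adjusted p = 0.205). Snord91a, in Tsr1, read 3.08 and 3.38 on LTKO FST288 and 2.34 and 2.43 on LTKO GFP arrays without being called (log2 0.85 ± 0.22, limma adjusted p = 0.216).

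**Figure D5:**
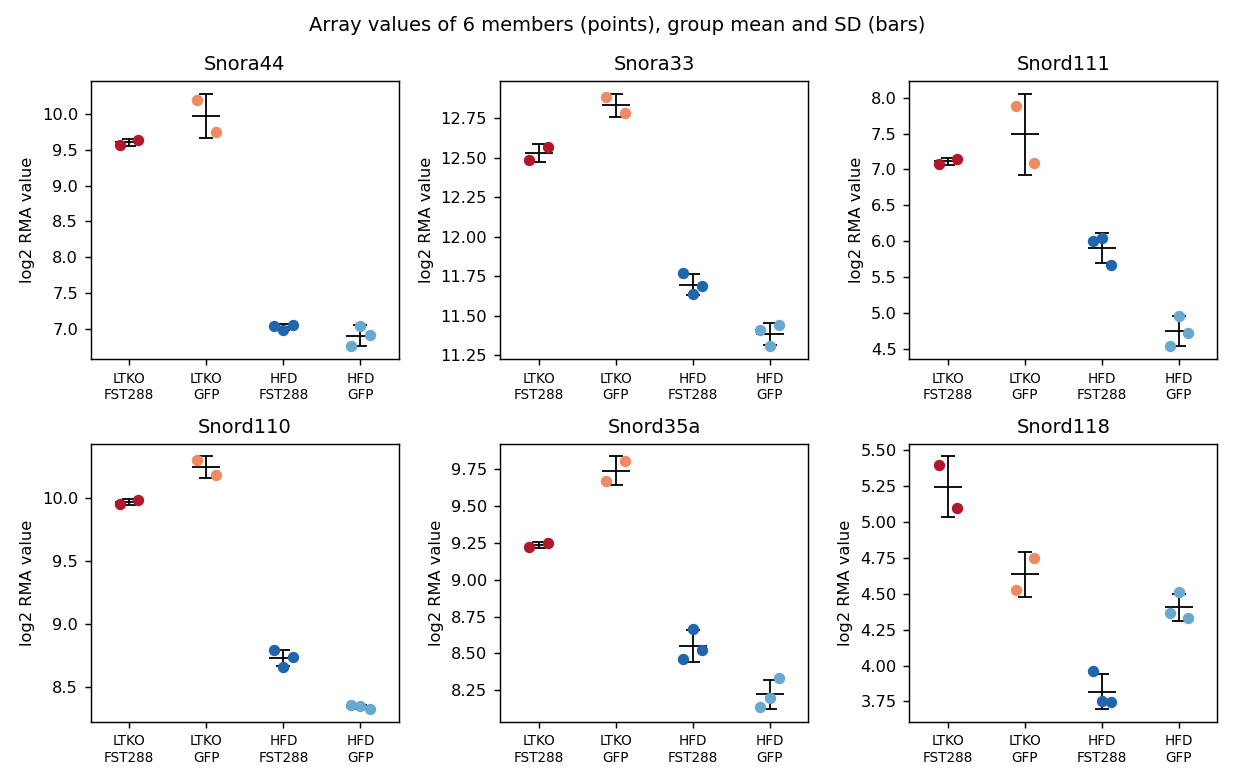
Log2 RMA values of 6 small nucleolar RNA genes on the 10 arrays (points), with the mean and SD of each group (bars; n = 2 for the LTKO groups and n = 3 for the HFD groups); each panel has its own axis, which does not start at 0. Snora33, Snord110 and Snord35a are lower in LTKO FST288 than in LTKO GFP livers and higher in HFD FST288 than in HFD GFP livers, and Snord118 runs the other way in both.

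The difference between the 2 follistatin effects, LTKO minus HFD, was tested as an interaction. It was called in 5 snoRNA genes, 1 positive and 4 negative, beside 0.117% of all genes positive and 0.0992% negative. The median interaction was -0.13 over the H/ACA and -0.30 over the C/D genes, beside -0.01 over all genes. A negative value means that the log2 change with FST288 was lower in LTKO than in HFD livers. In Snord110 the effect was -0.27 in LTKO and 0.39 in HFD livers, a difference of -0.66 ± 0.11 (limma adjusted p = 0.0322). For Snord35a the effects were -0.50 in LTKO and 0.33 in HFD livers (difference -0.83 ± 0.13, limma adjusted p = 0.0272), and for Snord35b -0.44 in LTKO and 0.58 in HFD livers (difference -1.02 ± 0.17, limma adjusted p = 0.0347). Snora33 had effects of -0.30 in LTKO and 0.31 in HFD livers (difference -0.61 ± 0.09, limma adjusted p = 0.0221), but with the mean of its 2 clusters the difference turned to 0.10 and was not called. In all 4, the FST288 arrays lay below the GFP arrays in LTKO livers and above them in HFD livers, without overlap. These genes had been picked by their interaction calls on these same arrays, so this separation is no separate check. The effect in LTKO livers was called in none of them, and that in HFD livers in Snord110, Snord35b and Snora33.

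Snord118, the U8 RNA, differed in the other direction. It read 5.39 and 5.10 on LTKO FST288 and 4.53 and 4.74 on LTKO GFP arrays, and 3.96, 3.75 and 3.74 on HFD FST288 and 4.37, 4.51 and 4.33 on HFD GFP arrays. FST288 arrays were thus higher in LTKO and lower in HFD livers, without overlap in either. Snord118 too had been picked by its interaction call on these arrays, so this separation is no separate check. Neither effect was called by itself (limma adjusted p = 0.205 in LTKO and 0.0522 in HFD livers). The effects were 0.61 in LTKO and -0.59 in HFD livers, and their difference was 1.20 ± 0.20 (limma adjusted p = 0.0386). None of the 5 interaction calls was kept in every fit that left out 1 array, and 0 were called without HFD FST288 arrays 2 and 3. The differences without those arrays were -0.69 for Snora33, -0.72 for Snord110, -0.74 for Snord35a, -0.99 for Snord35b and 1.06 for Snord118. Leaving out HFD GFP array 1, 2 or 3 gave 0, 1 and 2 calls, leaving out HFD FST288 array 2 or 3 gave 1 and 0, and leaving out LTKO GFP array 1 gave 2.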

How the data were processed

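Mouse liver RNA was measured on 10 arrays, 1 for each sample. The deposited values are log2 signals per transcript cluster; RMA and Affymetrix Expression Console are the tools the submitters' processing notes name; the version is not given in the sources used here. The file does not state the log base; base 2 is what RMA gives and suits the values, which ran from 0.64 to 13.21. Array medians lay between 2.71 and 2.75. An array has no counts, so the number of arrays limits the precision.

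Clusters were named with GEO's platform annotation. Of 41345 clusters, 23521 had 1 symbol, 1814 several and 16010 none. The brightest cluster of each symbol gave 22180 genes, with no filter on dim genes. The 43 clusters listed for a snoRNA together with other genes were left out of the comparisons. All 10 arrays entered one limma model (version 3.58.1, R 4.3.3) with a mean for each of the 4 groups (eBayes with an intensity trend, 6 residual and 7.155 prior degrees of freedom). Tests were two-sided, with p adjusted by Benjamini-Hochberg over 22180 genes within a comparison; errors of log2 changes are SE. The procedure was tested on simulated data.

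Hosts came from the RefSeq annotation of GRCm38.p6, which matched all 73 genes by gene identifier. The table used has no strand, so hosts were not required to share the strand of the snoRNA, as had been planned. Promoter windows are from RefSeq in the same build.

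The members and lists were chosen with earlier results of these data known. Named members were the called ones with the smallest p in each comparison (at most 12, filled up by the most extreme t where fewer than 8 were called), the 2 brightest and the 2 of widest range in each class, Snora21, the U8, U13 and U17 genes and the Rpl13a, Gas5 and Snhg1 clusters; other names are marked as chosen after their values were seen.

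Alternatives changed the moderation of variances, array weights, the arrays fitted, the normalization, dim genes, how clusters of a gene were combined, which features were tested, the threshold, a replicate block, an acinar covariate and each array in turn.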

Additional observations from a re-analysis of the deposited data

Results flagged for a closer look

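In 5 snoRNA genes the effect of FST288 differed between LTKO and HFD livers in the interaction test. The log2 difference, LTKO minus HFD, was -0.61 for Snora33, -0.83 for Snord35a, -0.66 for Snord110, -1.02 for Snord35b and 1.20 for Snord118. The second, dimmer cluster of Snora33 did not follow its first, and the mean of both gave 0.10.

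Of the 43 clusters that list a snoRNA together with other genes, and that were left out of the comparisons, 17 were higher in LTKO livers with GFP and 0 lower, against HFD livers with GFP, in a limma fit over all 41345 clusters in which 3.68% were called higher. With FST288, 12 of the 43 were higher in LTKO livers and 0 lower, beside 2.45% of all clusters. Between FST288 and GFP in HFD livers, 0 of the 43 were called, beside 0.0943% of all clusters called higher. The 43 clusters held 28 distinct sets of values.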

How the results depend on the processing

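In LTKO GFP against HFD GFP livers, 45 to 55 snoRNA genes were called under the 13 alternatives other than leaving out an array, and 39 to 53 without 1 array; 37 of the 51 calls held in all of these fits. The H/ACA median ran from 0.75 to 1.39 without 1 array. With FST288, 28 of 50 calls held in all fits, the count was 32 without HFD FST288 arrays 2 and 3, and 39 to 52 without 1 array. For FST288 in HFD livers the 8 calls became 3 without the intensity trend, 15 with the compared arrays alone (2 of them lower), 13 over brighter genes, 14 at an adjusted p under 0.10 (1 lower in each), and 0 over all clusters, with the acinar covariate or without arrays 2 and 3 (1 to 13 without 1 array). In LTKO livers an adjusted p under 0.10 gave 1 call and leaving out 1 array 0 to 1, and the H/ACA median ran from -0.33 to 0.24. The 5 interaction calls became 0 without the trend, over all clusters, with the acinar covariate or without arrays 2 and 3, and 9 at an adjusted p under 0.10 (0 to 6 without 1 array; H/ACA median -0.36 to 0.089). Same-numbered arrays did not deviate together (correlations of 0.00842, -0.00661 and -0.00965 in HFD and -0.0685 in LTKO livers), so the numbers were not taken as pairs. With the replicate number as a block the interaction count was 3, and the other counts were 49 and 46 for LTKO against HFD with GFP and with FST288, 9 for FST288 in HFD and 0 in LTKO livers. The interaction of Snora33 reversed, to 0.10, with the mean of its clusters, which differ from each other. The causes of the other shifts were not tested, apart from fewer arrays and more features tested in the fits so named. Among dim genes, array signal near background limits what could be seen.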

Other observations

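Of the 17 snoRNA genes called in neither LTKO comparison, the 4 brightest were Snord99, Snora73b, Snord23 and Snora20, chosen here by that order after their values were seen. Snord99 had log2 changes of 0.37 with GFP and 0.38 with FST288. Snord23, in Nop53, had 0.32 and 0.17, and Snora20, in Tcp1, 0.12 and -0.02.

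LTKO FST288 array 1 exceeded array 2 in 31 of the 73 snoRNA genes, with a median difference of -0.04, beside 59 of 73 and 0.36 between the LTKO GFP arrays.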
